A study of Homo sapiens with 4 samples.

Results

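The genes described here are 42 collagens, collagen-modifying enzymes and matrix glycoproteins, chosen by name, out of 57820 genes counted. The cells were Daoy, a long-established line grown from a human medulloblastoma, a cerebellar tumour. Each symbol matched 1 gene identifier, and 41 of the 42 had enough reads to be tested; COL11A1, with 1 read in each of wild-type libraries 1 and 2 and no read in the others, did not. Daoy cells were compared with a polyclonal Daoy population that carries a short hairpin RNA (shRNA) against ARID1B, a DNA-binding subunit of the SWI/SNF chromatin remodelling complex BAF, in the lentiviral vector tet-pLKO-puro, which doxycycline switches on. The data were 4 libraries of poly(A) RNA, 3 with the genotype label wild-type (Daoy_WT1 to WT3, here wild-type libraries 1 to 3) and 1 labelled as expressing the ARID1B shRNA. The label's protocol gives doxycycline at 1 µg/ml for 72 h for every library. Per the series design the controls include both cells with empty vector and parental cells; which of the wild-type libraries is which was not given. Reads assigned to genes numbered 12619786, 13228587 and 15390106 in wild-type libraries 1 to 3 and 8792848 in the library labelled ARID1B shRNA. With only 1 shRNA library, every test drew its spread from wild type, and nothing in the labels says that those came from separate cultures.

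Collagens are trimers of chains wound into a triple helix in the endoplasmic reticulum. Prolyl and lysyl hydroxylases modify the chains there, the chaperone HSP47 escorts the folded trimer, and lysyl oxidases cross-link the assembled collagen outside the cell. Types I, III and V form fibrils, type IV the sheet of basement membranes and type VI beaded filaments. Fibronectin and fibrillins are fibre-forming glycoproteins on which other matrix is laid down. Matricellular proteins such as thrombospondins and tenascin-C mainly signal to cells, and small leucine-rich proteoglycans such as decorin bind collagen fibrils. In brain, most of this matrix is made by vessels and meninges, while versican and tenascin-C belong to the matrix of neural tissue itself.

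Sequence from before the transcription start is shown for the gene pair that shares one such stretch and for 4 members whose levels the results turn on. It comes from the RefSeq promoter table (GRCh38.p14), read 5′ to 3′ on the strand named, and 33 of the 42 members had an entry there. Capitals mark GGGCGG (the GC box, bound by Sp1-type factors) and CCAAT (the box bound by NF-Y), or their reverse complements; overlapping matches are counted singly. COL4A1 and COL4A2 lie head to head, and the 126 bases between their starts are chr13:110307158-110307283, plus strand, with COL4A2 starting at the right end. COL27A1 (chr9:114155287-114155536, plus strand) and COL12A1 (chr6:75206054-75206303, minus strand) are collagen genes that stood higher in the library labelled ARID1B shRNA. FN1 (chr2:215436069-215436318, minus strand) and THBS1 (chr15:39580829-39581078, plus strand) are the abundant glycoprotein genes that stood lower and higher there. Each of the last 4 shows the 250 bases before the start.
COL4A1-COL4A2: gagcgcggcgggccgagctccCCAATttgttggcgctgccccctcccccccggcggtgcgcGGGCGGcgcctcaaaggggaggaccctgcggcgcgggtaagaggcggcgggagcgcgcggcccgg
COL27A1: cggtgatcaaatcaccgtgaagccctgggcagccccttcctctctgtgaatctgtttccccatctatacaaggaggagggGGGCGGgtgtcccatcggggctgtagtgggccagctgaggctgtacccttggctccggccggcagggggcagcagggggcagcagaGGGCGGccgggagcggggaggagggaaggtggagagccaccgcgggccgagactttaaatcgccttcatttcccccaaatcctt
COL12A1: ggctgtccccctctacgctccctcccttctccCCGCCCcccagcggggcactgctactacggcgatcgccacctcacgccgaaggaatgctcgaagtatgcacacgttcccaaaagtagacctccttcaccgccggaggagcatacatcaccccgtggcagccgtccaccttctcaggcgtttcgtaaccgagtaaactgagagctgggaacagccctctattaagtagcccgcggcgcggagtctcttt
FN1: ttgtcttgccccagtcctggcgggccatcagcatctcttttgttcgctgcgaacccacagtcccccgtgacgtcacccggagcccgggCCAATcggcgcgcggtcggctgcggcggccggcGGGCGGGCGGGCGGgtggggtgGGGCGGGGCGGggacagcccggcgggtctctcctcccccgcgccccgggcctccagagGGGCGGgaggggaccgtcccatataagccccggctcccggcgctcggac
THBS1: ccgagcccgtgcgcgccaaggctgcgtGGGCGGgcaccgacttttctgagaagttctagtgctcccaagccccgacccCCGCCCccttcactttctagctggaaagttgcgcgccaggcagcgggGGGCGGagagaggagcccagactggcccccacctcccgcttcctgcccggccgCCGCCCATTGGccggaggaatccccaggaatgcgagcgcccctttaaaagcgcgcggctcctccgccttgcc
GGGCGG, searched on both strands, was in the 250 bases of 24 of the 33 members (72.7%) and of 46.2% of all 27305 genes in the table. CCAAT was in 13 of 33 (39.4%) against 37.0%, and TATAAA in 6 of 33 (18.2%) against 13.0%. FN1 held 6 GC boxes and 1 CCAAT, THBS1 4 and 1, COL27A1 2 GC boxes and COL12A1 1. The stretch between COL4A1 and COL4A2 held 1 of each and was 80.2% G and C. The 27305 genes were not narrowed to the 17024 genes tested here, so members and background are unlike sets. Their differences were not tested and are not read as a trait of the members. A match describes these letters and is not a measured binding site.

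The targeted gene checks the labels. ARID1B stood at 164, 88.0 and 72.9 CPM (reads of the gene relative to the TMM-scaled library size) in wild-type libraries 1, 2 and 3, against 175 CPM in the library labelled ARID1B shRNA. It was thus not lower there (log2 fold change 0.69, SE 0.46, edgeR adjusted p = 0.399). Its value was -0.18 (SE 0.61, edgeR adjusted p = 0.89) after a loess on GC content and transcript length was taken out of each library (called the trend from here on), 0.62 (SE 0.53, edgeR adjusted p = 0.538) with a quadratic in place of the linear loess, and 1.12 when wild-type library 1 was left out (edgeR adjusted p = 0.026). Every direction that follows belongs to the library labelled ARID1B shRNA. The medulloblastoma label was set against a list of 12 marker genes of the cerebellar granule lineage and of medulloblastoma. They summed to 59.8 to 73.6 CPM in wild type, against 77.6 CPM in the library labelled ARID1B shRNA; ATOH1, the lineage's defining factor, was at 0 reads in all 4 libraries, and PAX6 was highest at 26.6 CPM. Of 8 of them tested 1 rose, ZIC2, where 3.65% of all tested genes did. It went from 9.22 ± 1.25 CPM (SD, n = 3) to 24.8 CPM (edgeR adjusted p = 0.043, and 0.219 with the trend removed). Blood and immune markers summed to at most 0.716 CPM in any library, and epithelial ones to 9.24 to 22.0 CPM in wild type, against 10.7 CPM.

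Among the 41 tested members, 1 rose and 1 fell by edgeR's quasi-likelihood test at a Benjamini-Hochberg adjusted p below 0.05. COL27A1, a fibrillar collagen chain, rose 2.84-fold, and COL5A2, a chain of the fibril-nucleating type V collagen, fell 3.15-fold. The remaining 39 did not pass. Fewer cells that express a gene and less of its RNA per cell cannot be told apart in these bulk libraries. Over all 17024 tested genes 4.48% were called, 3.65% higher and 0.834% lower, so 2 of 41 (4.88%) is close to the background. At an unadjusted p below 0.05 there were 20 members of 41 (48.8%), against 25.4% of all tested genes. The median log2 fold change of the members was 0.14, with a range from -3.36 to 3.26, against -0.05 for all tested genes. The library labelled ARID1B shRNA lay above every wild-type library for 18 members (43.9%) and below every one for 13 (31.7%), where 35.4% and 37.9% of all tested genes did so. The plot of CPM by library shows that the fibrillar chains, collagen VI and the matricellular genes split into members above and members below wild type.

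How many members passed depended strongly on the test and on single libraries. By DESeq2 14 of 41 passed (34.1%, against 10.4% of all genes): 7 rose (background 7.85%), namely COL12A1, COL13A1, COL18A1, COL27A1, SERPINH1, THBS1 and THBS2, and 7 fell (2.58%), namely COL1A2, COL3A1, COL5A2, FN1, SPARC, TNC and VCAN. By limma-voom 6 passed (14.6%, against 4.81%): COL12A1, COL13A1, COL18A1 and COL27A1 rose (4.25%), and COL3A1 and COL5A2 fell (0.558%). The later quasi-likelihood method of edgeR added COL3A1 to the lower ones, with 4.92% of all genes called, 4.08% higher and 0.846% lower. Without a filter on low counts 8 members rose and 8 fell, against 10.5% of 30709 genes (7.4% higher, 3.1% lower). Without wild-type library 1, 6 rose and 5 fell, against 7.07% of all genes (5.43% higher, 1.65% lower). Without library 2 none passed by edgeR, where 0.938% of all genes did (0.836% higher, 0.102% lower). Without library 3, COL27A1, COL6A2 and THBS1 rose and none fell, against 2.85% (2.68% higher, 0.173% lower). COL27A1 and COL5A2 were thus called by all 3 tools as measured, and neither was called without library 2.

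**Figure D1:**
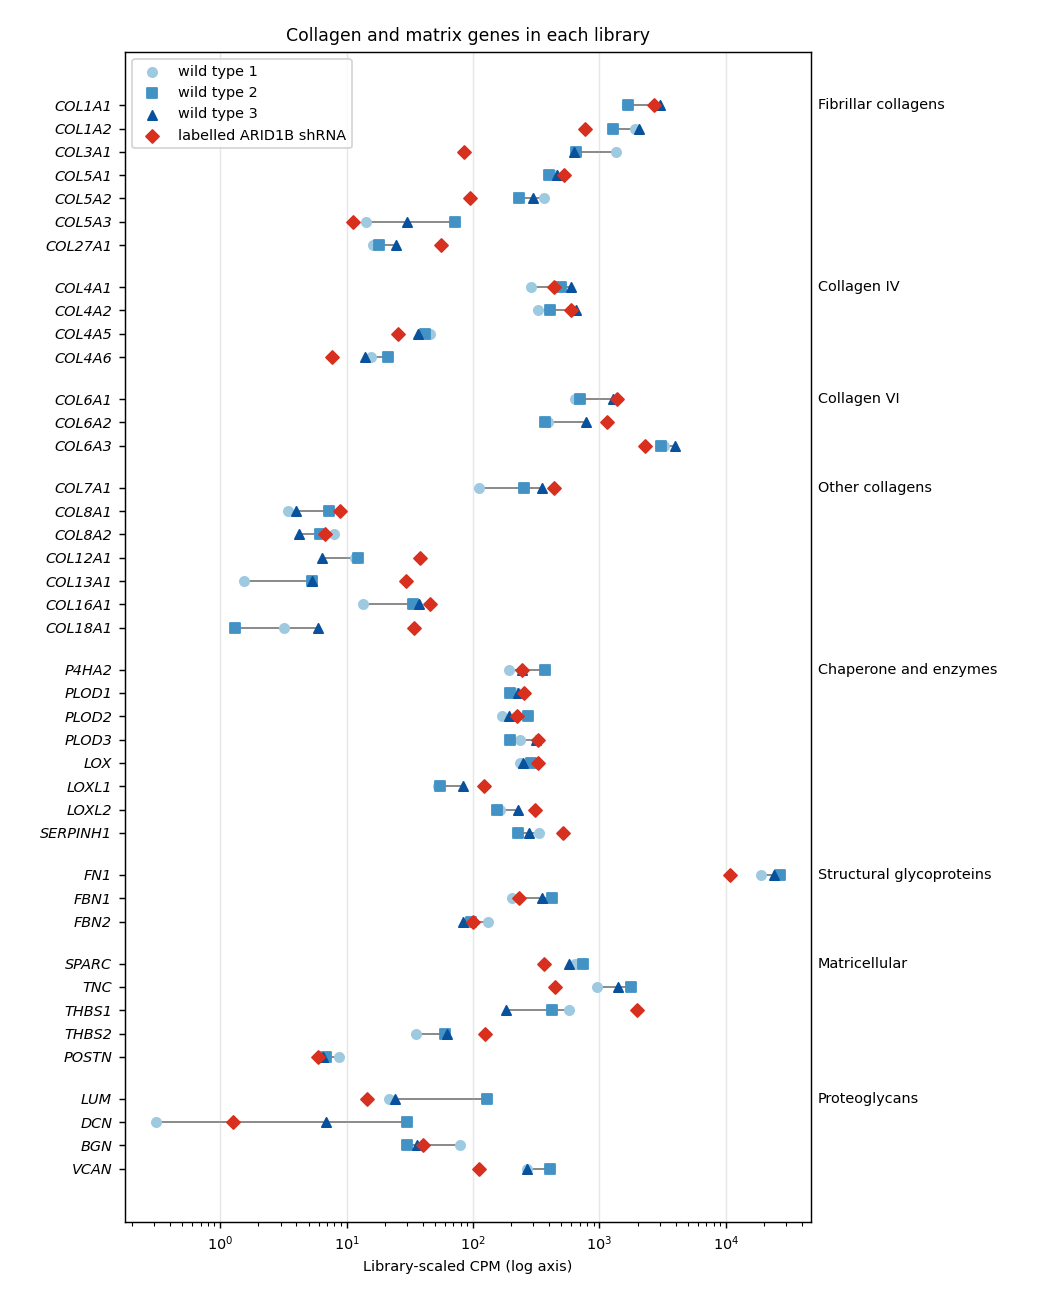
Library-scaled CPM (log axis) of the 41 tested members in each library, grouped by role; the grey line spans the 3 wild-type libraries. COL3A1 in the library labelled ARID1B shRNA sits at 85.1 CPM, left of its wild-type range of 626 to 1349 CPM, and THBS1 at 1995 CPM, right of its range of 183 to 573 CPM.

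As measured, the library labelled ARID1B shRNA held a smaller share of reads from these genes, and that difference lay in FN1. The 42 members took 3.50%, 4.15% and 4.31% of genic reads in wild-type libraries 1 to 3 and 2.71% (exact 95% Clopper-Pearson interval 2.70 to 2.72%, counting error only) in the library labelled ARID1B shRNA. Without FN1 the share was 1.57%, 1.53% and 1.90% in wild type and 1.64% there, inside the wild-type range. The 22 collagen chains alone took 1.10%, 0.953% and 1.42% in wild type and 1.07% there, also inside the range. These shares are from reads as counted, with no GC and length trend removed. With that trend removed, 16 of the 21 tested collagen chains (76.2%) had a negative log2 fold change, against 56.2% of all tested genes. Their median was then -0.80, and FN1 had -0.92, so the statement on FN1 holds only as measured.

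Levels of different genes were compared as CPM per kilobase of the longest reference transcript. FN1 was far above the rest in wild type, with a mean of 2540 CPM per kb. COL6A3 (285 to 370 CPM per kb), COL1A1 (247 to 445) and COL1A2 (212 to 342) came next, and their wild-type ranges overlapped, so their order is not resolved. COL6A1 (150 to 301), TNC (125 to 231), SPARC (156 to 199) and COL3A1 (113 to 243) followed, again with overlapping ranges. In the library labelled ARID1B shRNA the order was FN1 (1172 CPM per kb), COL1A1 (400), COL6A2 (330), COL6A1 (324), THBS1 (257) and COL6A3 (212). COL1A2 stood at 129 CPM per kb there. COL3A1 went from rank 8 of 41 in wild type to rank 25, and THBS1 from rank 19 to rank 5. These orders are as measured and were not computed with the GC and length trend removed. COL1A1, COL6A1 and COL6A2 lay in the top decile of GC content, and their log2 fold changes were -0.73, -0.70 and -0.69 with that trend removed.

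Of the 7 tested fibrillar chains 1 rose, 1 fell and 5 did not pass, with a median log2 fold change of -1.17. COL27A1 measured 16.1, 17.9 and 24.5 CPM in wild type, against 55.7 CPM in the library labelled ARID1B shRNA, above all wild-type libraries (log2 fold change 1.51, SE 0.27, edgeR adjusted p = 0.0435). Removing the GC and length trend gave 0.29 (edgeR adjusted p = 0.452), and the call also ended when library 2 was left out (edgeR adjusted p = 0.0874). COL5A2 measured 364, 232 and 299 CPM in wild type, against 94.8 CPM there, below all wild-type libraries (-1.65, SE 0.30, edgeR adjusted p = 0.0444). Removing the trend gave -1.62 (edgeR adjusted p = 0.0519). The adjusted p was 0.05002 without wild-type library 2 and 0.0988 without library 3 (edgeR).

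COL3A1, the neighbour of COL5A2 on chromosome 2, encodes the single chain of type III collagen, which is prominent in stretchable tissues. It measured 1349, 655 and 626 CPM in wild type, against 85.1 CPM (95% Poisson interval 79.1 to 91.4, counting error only) in the library labelled ARID1B shRNA. The groups did not overlap, and the log2 fold change was -3.36 (SE 0.61), just short of the threshold (edgeR adjusted p = 0.0519). Removing the trend gave -3.53. The value was -2.91 without wild-type library 1, where it passed (edgeR adjusted p = 9.9e-04).

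The chains of type I collagen parted. COL1A2 measured 1900, 1271 and 2050 CPM in wild type, against 775 CPM in the library labelled ARID1B shRNA, below every wild-type library (-1.17, SE 0.31, edgeR adjusted p = 0.0984). COL1A1 measured 1661, 1678 and 2995 CPM in wild type, against 2691 CPM there, inside the wild-type range. In type V collagen, COL5A1 stood at 439, 402 and 463 CPM in wild type, against 524 CPM there, so that it lay above wild type while its partner COL5A2 lay below. Once the trend was removed COL1A1 and COL5A1 had negative values too, -0.73 and -0.94 in place of 0.35 and 0.27 (edgeR adjusted p = 0.127 and 0.0713). COL5A3, the third type V chain, varied between 14.3 and 72.3 CPM in wild type and stood at 11.2 CPM.

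None of the 4 collagen IV chains passed by edgeR, DESeq2 or limma-voom. Of them 2 had an unadjusted edgeR p below 0.05, against 25.4% of all tested genes. COL4A1, which makes the ubiquitous basement membrane trimer with COL4A2, measured 286, 494 and 591 CPM in wild type, against 435 CPM in the library labelled ARID1B shRNA (log2 fold change -0.07, SE 0.41, edgeR adjusted p = 0.928). COL4A2 measured 324, 403 and 648 CPM in wild type, against 592 CPM there (0.37, SE 0.39, edgeR adjusted p = 0.585), so both genes that share the 126 bases stayed within their wild-type ranges. COL4A5 measured 45.6, 41.6 and 36.5 CPM in wild type, against 25.4 CPM there (log2 fold change -0.70, SE 0.23, edgeR adjusted p = 0.14). COL4A6, its neighbour on chromosome X, measured 15.7, 21.2 and 14.1 CPM in wild type, against 7.64 CPM there (-1.15, SE 0.35, edgeR adjusted p = 0.12). This second pair lay below every wild-type library.

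The chains of collagen VI split as well. COL6A1 measured 636, 702 and 1274 CPM in wild type, against 1373 CPM in the library labelled ARID1B shRNA, and COL6A2 measured 395, 369 and 780 CPM in wild type, against 1143 CPM there. Both of these short chains, neighbours on chromosome 21, lay above wild type, with wild-type library 3 the nearest. COL6A3, the long chain, measured 3216, 3066 and 3979 CPM in wild type, against 2281 CPM there, below wild type. The log2 fold changes were 0.66, 1.15 and -0.58 (edgeR adjusted p = 0.37, 0.191 and 0.149). After removal of the GC and length trend they were -0.70, -0.69 and -1.38, and COL6A3 then passed (edgeR adjusted p = 0.0164). That call rested on the form of the trend: with a quadratic in place of a linear loess COL6A3 had -0.59 (edgeR adjusted p = 0.102).

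The remaining 7 collagen chains all had a positive log2 fold change as measured, against 46.8% of all tested genes. Of these 7, 4 lay in the top decile of GC content, where the median of all tested genes was 1.32. Once the trend was removed 4 of 7 were positive. None passed by edgeR, while 3 had an unadjusted p below 0.05, against 25.4% of all tested genes. Those 3, COL12A1, COL13A1 and COL18A1, passed by both DESeq2 and limma-voom. COL12A1, which sits on the surface of type I fibrils, measured 11.6, 12.3 and 6.38 CPM in wild type, against 38.2 CPM in the library labelled ARID1B shRNA (log2 fold change 1.92, SE 0.37, edgeR adjusted p = 0.0531). COL13A1, a transmembrane collagen, measured 1.55, 5.33 and 5.34 CPM in wild type, against 29.3 CPM there (2.84, SE 0.60, edgeR adjusted p = 0.0653). COL18A1, the precursor of the angiogenesis inhibitor endostatin, measured 3.18, 1.31 and 5.99 CPM in wild type, against 34.0 CPM there (3.26, SE 0.66, edgeR adjusted p = 0.062). Each of these 3 stood above the highest wild-type library, from low wild-type levels. With the trend removed COL12A1 kept 1.61 and COL13A1 2.17, while COL18A1 had 1.26. When wild-type library 1 was left out, COL12A1 and COL13A1 passed (edgeR adjusted p = 0.0314 and 0.00397) and COL18A1 did not (0.0773). COL12A1 also passed with the quadratic loess (2.31, edgeR adjusted p = 0.0372). COL8A1, a short-chain collagen of vessel walls, measured 3.42, 7.19 and 3.97 CPM in wild type, against 8.78 CPM there (0.86, SE 0.48, edgeR adjusted p = 0.317). The other 3, COL7A1, COL8A2 and COL16A1, had log2 fold changes that turned negative with the trend removed.

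**Figure D2:**
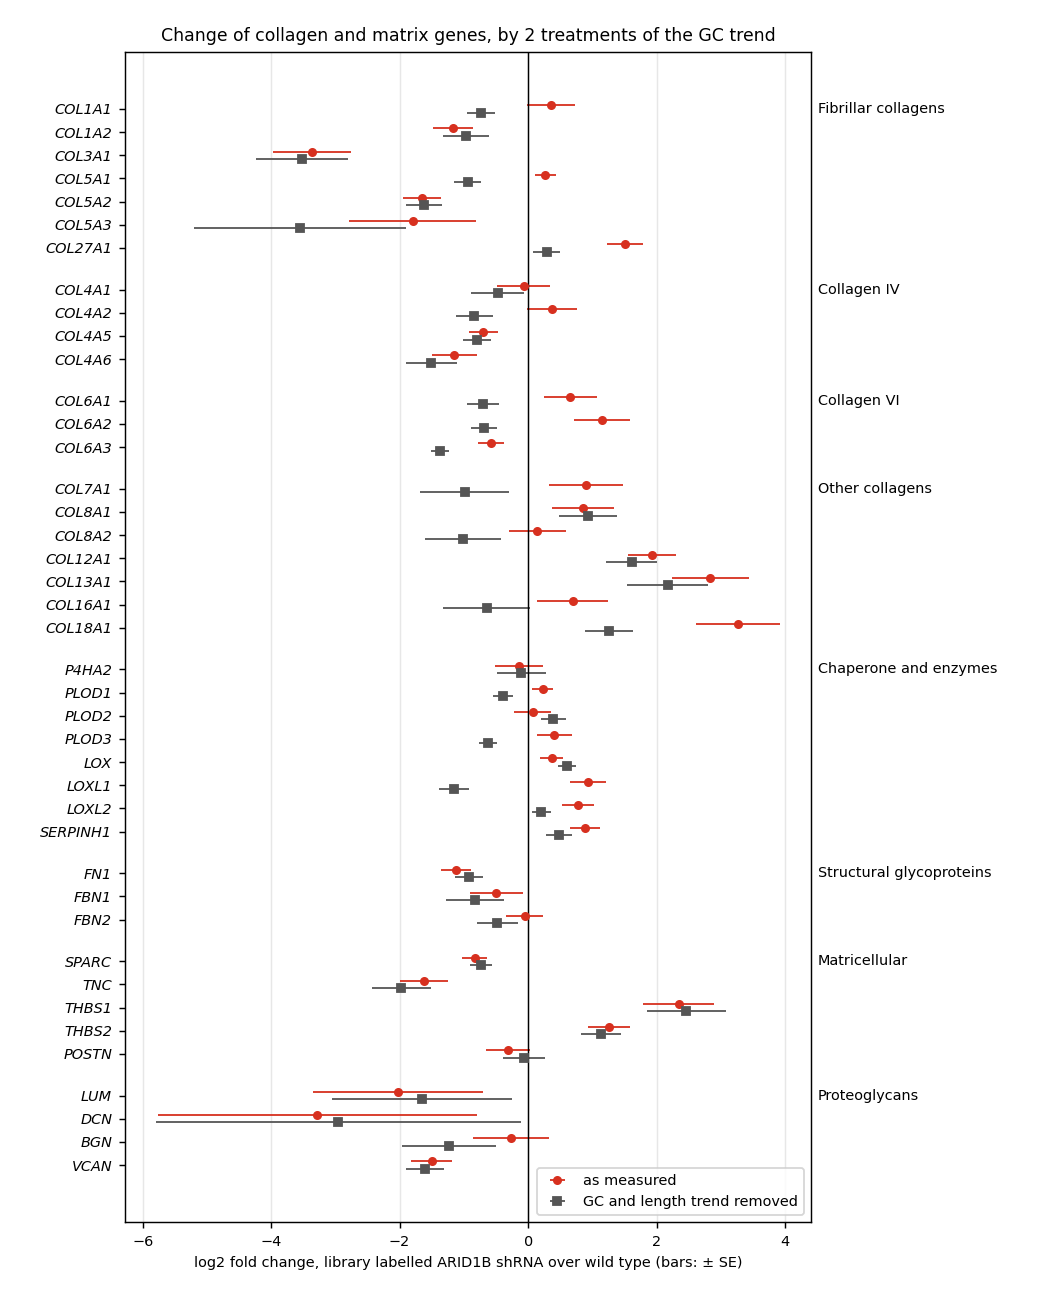
Log2 fold change (± SE) of each tested member in the library labelled ARID1B shRNA over wild type, as measured (circles) and once the GC and length trend was removed (squares). COL5A2 lies at -1.65 and -1.62, COL27A1 at 1.51 and 0.29 and LOXL1 at 0.93 and -1.16. Neither COL5A2 nor COL27A1 passed once the trend was removed.

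Of the 8 genes for the collagen chaperone and modifying enzymes, 7 had a positive log2 fold change as measured, against 46.8% of all tested genes. With upper-quartile scaling 6 did, where PLOD2 turned negative, and once the trend was removed 4 did. None passed by edgeR or limma-voom. Of the 8, 3 had an unadjusted edgeR p below 0.05 (25.4% of all tested genes did), and 1, SERPINH1, rose by DESeq2 (7.85% did). SERPINH1, which encodes the chaperone HSP47, measured 332, 225 and 279 CPM in wild type, against 513 CPM in the library labelled ARID1B shRNA (log2 fold change 0.88, SE 0.23, edgeR adjusted p = 0.0921; 0.48 with the trend removed). The lysyl oxidase genes LOX, LOXL1 and LOXL2 also stood above all wild-type libraries, while LOXL4, outside the 42, stood below them (1.48 CPM, against 4.27 to 9.74) and LOXL3 within. LOX measured 234, 288 and 246 CPM in wild type, against 329 CPM there, LOXL2 163, 154 and 227 CPM and 311 CPM, and LOXL1 53.2, 55.3 and 83.2 CPM and 122 CPM. Their log2 fold changes were 0.36, 0.78 and 0.93 (edgeR adjusted p = 0.267, 0.133 and 0.125) and 0.60, 0.21 and -1.16 with the trend removed. Of the hydroxylase genes, PLOD1 stood at 197 to 228 CPM in wild type, against 252 CPM there, PLOD3 at 196 to 313 and 329 CPM, and P4HA2 and PLOD2 stayed inside their wild-type ranges.

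FN1, the gene of fibronectin and the most abundant member, measured 18933, 26801 and 24158 CPM in wild type, against 10750 CPM in the library labelled ARID1B shRNA. The groups did not overlap, and the log2 fold change was -1.12 (SE 0.23, edgeR adjusted p = 0.0593). Removing the trend gave -0.92 (edgeR adjusted p = 0.0862). FN1 passed when wild-type library 1 was left out (-1.25, edgeR adjusted p = 0.0075). FBN1, the main fibrillin, measured 204, 418 and 353 CPM in wild type, against 230 CPM there, and FBN2, the fetal form, 131, 96.5 and 83.1 CPM and 99.6 CPM. Both fibrillin genes lay inside their wild-type ranges (log2 fold change -0.50, SE 0.41, and -0.06, SE 0.28; edgeR adjusted p = 0.492 and 0.92).

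The matricellular genes lay on both sides of wild type. THBS1, the gene of thrombospondin-1, which activates latent TGF-beta, measured 573, 424 and 183 CPM in wild type, against 1995 CPM in the library labelled ARID1B shRNA (log2 fold change 2.34, SE 0.55, edgeR adjusted p = 0.0841). THBS2 measured 35.3, 59.8 and 62.0 CPM in wild type, against 125 CPM there (1.25, SE 0.33, edgeR adjusted p = 0.0948). Both stood above every wild-type library, while THBS3 and THBS4, thrombospondin genes outside the 42, stood below (7.53 CPM, against 10.7 to 19.5, and 5.36 CPM, against 7.11 to 9.08). For THBS1 and THBS2 the log2 fold changes were 2.46 and 1.13 with the trend removed. TNC, the gene of tenascin-C, an adhesion-modulating glycoprotein, measured 959, 1764 and 1412 CPM in wild type, against 447 CPM there (-1.62, SE 0.38, edgeR adjusted p = 0.078). SPARC, a collagen-binding glycoprotein, measured 636, 737 and 576 CPM in wild type, against 364 CPM there (-0.83, SE 0.20, edgeR adjusted p = 0.0759). These 2 genes stood below every wild-type library. Of the 5 tested matricellular genes 2 rose by DESeq2, THBS1 and THBS2 (7.85% of all tested genes did). TNC and SPARC fell (2.58% did). None of the 5 passed by limma-voom (4.81% did). These 4 genes are the ones with the smallest p in the group, and POSTN did not pass by either tool. When wild-type library 1 was left out, THBS1, THBS2 and TNC passed by edgeR (adjusted p = 0.044, 0.0327 and 0.0046) and SPARC did not (0.0747). THBS1 also passed without library 3 (2.00, edgeR adjusted p = 0.0422). POSTN, the gene of periostin, was scarce, at 6.51 to 8.77 CPM in wild type, against 5.93 CPM.

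All 4 proteoglycan genes had a negative log2 fold change, against 53.2% of all tested genes, and none passed by edgeR or limma-voom. Only 1, VCAN, had an unadjusted edgeR p below 0.05 (25.4% of all tested genes did) and fell by DESeq2 (2.58% did). VCAN, the gene of the large chondroitin sulphate proteoglycan versican, measured 268, 405 and 267 CPM in wild type, against 111 CPM in the library labelled ARID1B shRNA, below every wild-type library (-1.50, SE 0.32, edgeR adjusted p = 0.0621; -1.61 with the trend removed). With the quadratic in place of the linear loess VCAN had -1.07, so its value with the trend removed rested on the form of the trend. The small leucine-rich genes differed mainly between the wild-type libraries. DCN, the gene of decorin, measured 0.31, 29.8 and 6.83 CPM in wild type, against 1.25 CPM there. LUM, its neighbour on chromosome 12 and the gene of lumican, measured 21.7, 130 and 24.2 CPM in wild type, against 14.4 CPM there. Both were highest in wild-type library 2. Their log2 fold changes were -3.28 (SE 2.48) and -2.03 (SE 1.33), with edgeR adjusted p = 0.459 and 0.396, and DCN rested on 4 reads in library 1 and 11 in the library labelled ARID1B shRNA. BGN, the gene of biglycan, measured 78.9, 30.1 and 36.0 CPM in wild type, against 40.0 CPM there, and was highest in library 1 (-0.27, SE 0.59, edgeR adjusted p = 0.802).

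Spread between the controls was common among these genes. The highest wild-type CPM was at least 2 times the lowest for 16 of the 41 tested members (39.0%), where 19.6% of all tested genes reached that. The median ratio of highest to lowest was 1.80 for the members and 1.38 for all tested genes. DCN had the widest ratio, 95.9, followed by LUM at 5.98, COL5A3 at 5.06 and COL18A1 at 4.56. The modifying enzymes had none past 2 times, with a median of 1.52.

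Chains that assemble into one trimer were also compared within each library, as the ratio of their CPM per kb. The COL1A1 to COL1A2 ratio was 0.779, 1.18 and 1.30 in wild-type libraries 1 to 3 and 3.09 in the library labelled ARID1B shRNA. The COL5A1 to COL5A2 ratio was 1.01, 1.45 and 1.29 in wild type and 4.62 there. The COL6A3 to COL6A1 ratio was 1.99, 1.72 and 1.23 in wild type and 0.655 there. As measured, all 6 ratios computed lay outside their wild-type ranges. The same share over other gene pairs was not computed, so this is not read as a trait of these chains. Among single genes, 35.4% of all tested genes lay above every wild-type library in the library labelled ARID1B shRNA, and 37.9% lay below. The 3 ratios given above differed from the wild-type geometric mean by 2.92-fold, 3.74-fold and 2.47-fold. The ratios are a description and were not tested. In each of the 3 pairs the chain with the lower GC content stood lower relative to its partner. The same held as measured for COL4A1 with COL4A2 and for COL6A1 with COL6A2. COL4A5 with COL4A6 went the other way, with 50.9% GC in COL4A5 and 54.6% in COL4A6. With the trend removed the COL1A1 to COL1A2 ratio was 1.54, inside its wild-type range of 1.00 to 1.92. The COL5A1 to COL5A2 ratio was then 2.44 against 1.28 to 2.20, and the COL6A3 to COL6A1 ratio 0.90 against 1.26 to 1.79. The ratios of COL4A1 to COL4A2 (0.868, 1.20 and 0.897 in wild type and 0.721) and of COL6A1 to COL6A2 (1.31, 1.56 and 1.33 in wild type and 0.981) differed from the wild-type geometric mean by 1.36-fold and 1.42-fold. With the trend removed the COL4A1 to COL4A2 ratio was 1.11, above its wild-type range of 0.739 to 0.916. The COL6A1 to COL6A2 ratio was then 1.28, inside its range of 1.19 to 1.34. The COL4A5 to COL4A6 ratio was 3.03, 2.04 and 2.70 in wild type and 3.47 there, and 3.92 against 1.87 to 2.91 with the trend removed.

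**Figure D3:**
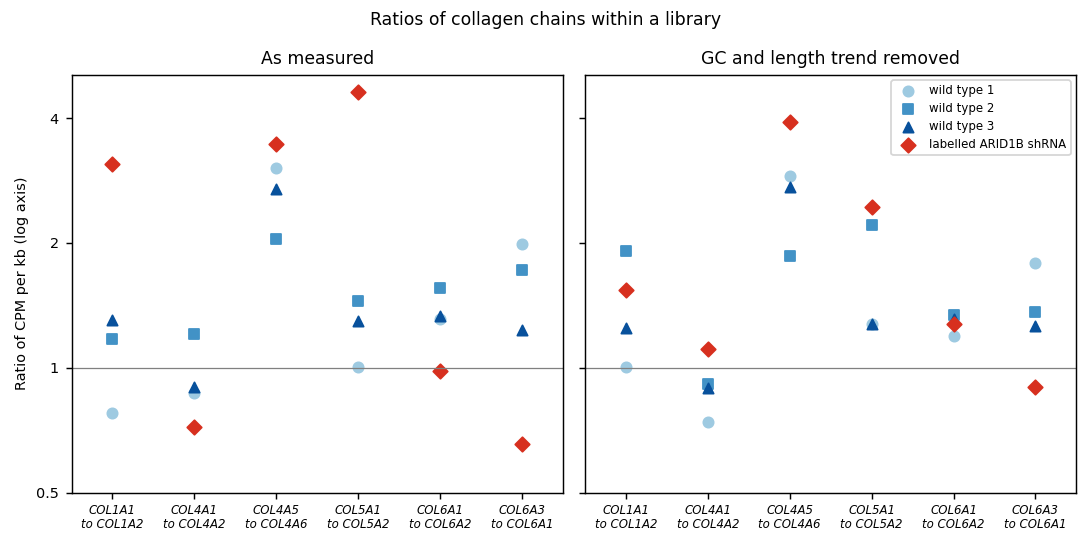
Ratio of CPM per kb (log axis) of collagen chain pairs in each library, as measured (left) and once the GC and length trend was removed (right). On the left the library labelled ARID1B shRNA stands at 3.09 for COL1A1 to COL1A2 and 4.62 for COL5A1 to COL5A2, above all wild-type libraries; on the right it stands at 1.54 and 2.44.

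GC content moved with these results. As background, the triple helix is coded by many glycine and proline codons, which begin with GG and CC. Of the 41 tested members 13 (31.7%) lay in the top GC decile (the highest of 10 equal groups of tested genes by GC content), which held 9.76% of all tested genes, some having no GC value. In that decile the median log2 fold change of all tested genes was 1.32, against -0.30 in the lowest decile. COL27A1 (61.3% GC, 1.51) stood close to that median, and COL1A1 (61.1%, 0.35) and COL6A1 (63.5%, 0.66) stood below it. Furthest from it among the members of that decile were COL18A1 (67.2%, 3.26) above and COL5A3 (64.2%, -1.80) below. COL3A1 (52.1%, -3.36), COL5A2 (47.9%, -1.65) and TNC (54.0%, -1.62) lay in deciles with medians of 0.03, -0.19 and 0.03, and THBS1 (45.6%, 2.34) and COL12A1 (46.3%, 1.92) in the one with -0.19. Among the 13 members of the top decile 10 had their highest wild-type value in library 3. The same share over all tested genes of that decile was not computed, so this is not read as a trait of the members. Removing the trend, which was fitted on GC content and transcript length together, turned the sign of 11 of 41 members (26.8%), against 20.3% of all tested genes. It left 30 members (73.2%) with a negative value, against 56.2%, and moved the members' median from 0.14 to -0.73. With the trend removed none rose and 1 of 41 fell by edgeR, COL6A3, where 3.1% of all tested genes were called (1.93% higher, 1.16% lower). With the quadratic loess 1 rose, COL12A1, and none fell, where 2.87% of all tested genes were called (2.05% higher, 0.822% lower). The parts of GC content and of transcript length in the members' differences were not separated and were not tested.

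**Figure D4:**
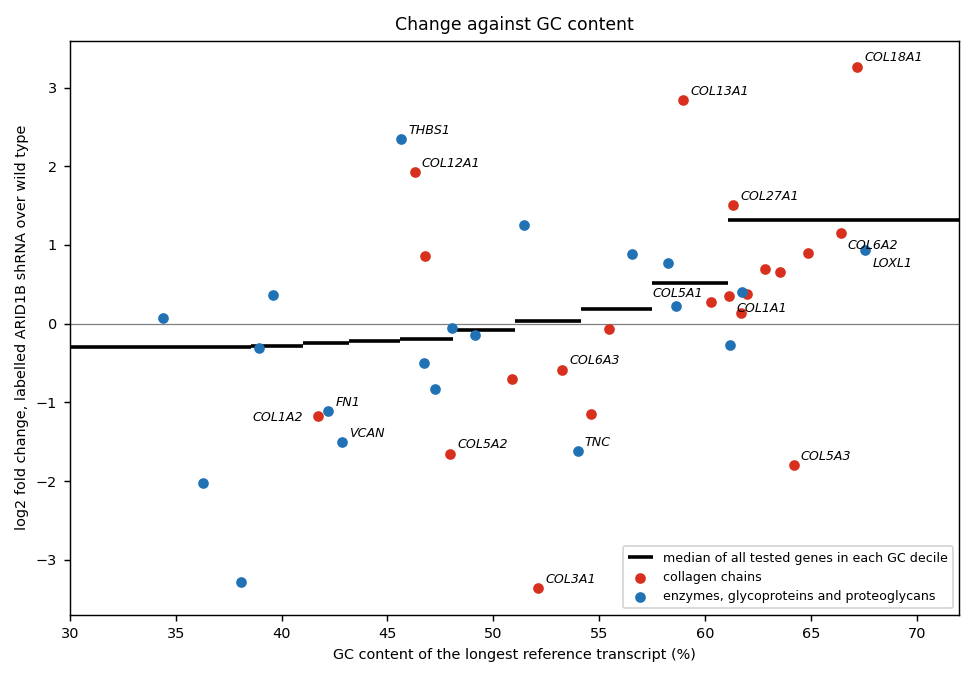
Log2 fold change in the library labelled ARID1B shRNA over wild type against GC content of the longest reference transcript, for collagen chains (red) and other members (blue); black lines are medians of all tested genes in each GC decile. COL27A1 (1.51) sits near the line of the top decile (1.32), whereas COL3A1 (-3.36) and THBS1 (2.34) sit far from the lines at their GC content.

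Other genes of the same pathway were read from lists of names. As background, 25.4% of all tested genes had an unadjusted edgeR p below 0.05. By edgeR 3.65% rose and 0.834% fell, by DESeq2 7.85% and 2.58%, and by limma-voom 4.25% and 0.558%. With the trend removed 1.93% rose and 1.16% fell by edgeR. Of 13 tested collagen chains outside the 42, none passed by edgeR or limma-voom, 3 had an unadjusted edgeR p below 0.05, and 1 fell by DESeq2. Of 32 tested genes for collagen folding, modification, secretion and processing, none passed by edgeR or limma-voom, 11 had an unadjusted p below 0.05, and by DESeq2 1 rose and 3 fell. Of 28 tested glycoprotein and elastic fibre genes none rose and 1 fell by edgeR, 10 had an unadjusted p below 0.05, by DESeq2 3 rose and 4 fell, and by limma-voom 1 fell. The one that fell by edgeR, TGFBI, which encodes a secreted collagen-binding protein, measured 7613, 6906 and 6633 CPM in wild type, against 2688 CPM in the library labelled ARID1B shRNA (log2 fold change -1.39, SE 0.17, edgeR adjusted p = 0.0222; -1.46 with the trend removed, 0.021). With the trend removed LTBP1, NID2 and ECM1, named after their values were seen, fell as well (-0.88, -1.15 and -1.39; edgeR adjusted p = 0.0446, 0.0314 and 0.0335). Of 8 tested proteoglycans none rose and 1 fell by edgeR, 2 had an unadjusted p below 0.05, and 1 rose and 1 fell by both DESeq2 and limma-voom. The one that fell by edgeR, SPOCK1 (testican-1), measured 658, 648 and 560 CPM in wild type, against 306 CPM there (-1.02, SE 0.18, edgeR adjusted p = 0.0424; -0.86 with the trend removed, 0.0482). AGRN, the gene of the basement membrane proteoglycan agrin and the one that rose by those 2 tools, measured 40.9, 56.8 and 106 CPM in wild type, against 408 CPM there (2.59, edgeR adjusted p = 0.0554; 0.41 with the trend removed). Of 10 tested collagen receptors none passed by edgeR or limma-voom, 3 had an unadjusted p below 0.05, and 1 fell by DESeq2. The medians of these 5 lists were 0.01, -0.03, 0.20, 0.51 and 0.21 as measured, against -0.05 for all tested genes. Once the trend was removed they were -0.97, -0.28, -0.39, 0.08 and -0.32, against -0.08.

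Some mesenchymal markers fell beside the members that stood lower. Of 9 tested fibroblast and mesenchymal markers 3 fell by edgeR, against 0.834% of all tested genes. VIM, the gene of vimentin, went from 2513 ± 125 to 937 CPM (mean ± SD, n = 3, against 1 library). S100A4 went from 156 ± 25.3 to 29.4 CPM, and the protease gene FAP from 16.7 ± 1.34 to 2.17 CPM. Their edgeR adjusted p was 0.0213, 0.0199 and 0.0209. All 3 also passed with the trend removed. The other 6 tested, among them PDGFRB (-1.96) and TWIST1 (0.14), did not pass. The 10 markers summed to 2829 to 3033 CPM in wild type, against 1116 CPM in the library labelled ARID1B shRNA, most of it VIM, and none was at 0 in all libraries. Their part in the lower values of FN1, COL3A1, COL1A2, COL5A2 and SPARC was not tested. Endothelial markers, whose source cells also make collagen IV and COL18A1, summed to 16.1 to 19.3 CPM in wild type, against 11.5 CPM there, nearly all of it TEK, and CDH5 did not exceed 1 read in any library.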

How the data were processed

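Poly(A) RNA of 3 libraries labelled wild type and 1 labelled ARID1B shRNA was read in single 100-nucleotide reads, per the labels' protocols. The deposited values are the authors' raw read counts per Ensembl gene. The submitters' processing notes name HISAT2, HTSeq, DESeq2, bcl2fastq and GRCh37 (hg19). Tool versions and strand setting: not given in the sources used here, so reads of overlapping and antisense genes cannot be told apart. The 5 closing rows that name no gene were left out (526633 to 1255687 reads outside genes and 674182 to 1109734 ambiguous reads per library).

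Genes were kept by filterByExpr (minimum count 10, minimum total 15), scaled by TMM and tested with edgeR 4.0.16 in R 4.3.3 (glmQLFit, robust, legacy method, and glmQLFTest), with Benjamini-Hochberg adjustment over 17024 genes and a threshold of 0.05. The 2 residual degrees of freedom come from wild type; the shRNA library is taken to vary likewise, and p-values measure only the spread between these libraries. The SE is the log2 fold change divided by the square root of F. GC content and length are those of the longest GENCODE transcript (GRCh38), known for 97.6% of tested genes. The trend was a loess per library (span 0.3, degree 1) on genes averaging 20 counts or more, removed through offsets. Alternatives were RLE and upper-quartile scaling, no filter, a mean count of 50 or more, the later quasi-likelihood method, no robust shrinkage, DESeq2 1.42.0, limma-voom (limma 3.58.1), leaving out each wild-type library and, added after seeing the data, a loess of degree 2 and the alternatives for chain ratios and read shares. No 2 libraries were duplicates (chi-square per degree of freedom 24.3 or more). The fit was also run on simulated counts that held no GC trend. That run cannot speak to the GC trend seen here, and no result above rests on it.

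Members and lists were chosen with earlier results of these data known. Fold changes are given for members that passed, as measured or with the trend removed, and for the 4 with the smallest p in each role; further ones (COL1A1, COL5A1, AGRN, LOXL3, LOXL4, THBS3, THBS4 and others) were named after their values were seen. SPON1 and PECAM1 of the lists matched no identifier.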

Additional observations from a re-analysis of the deposited data

How the results depend on the processing

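The count of members called depended on the setting. Higher and lower members numbered 1 and 1 as reported, 2 and 1 with RLE scaling, 1 and 3 with upper-quartile scaling, 8 and 8 with no filter, 7 and 7 with DESeq2, 4 and 2 with limma-voom, 1 and 2 with the later quasi-likelihood method or without robust shrinkage, 0 and 1 after removal of the GC and length trend, and 1 and 0 with the trend as a quadratic loess. Leaving out each wild-type library gave 0 to 6 higher and 0 to 5 lower; the call of 0 of 41 came without library 2. Over all genes, 763 were called as reported, 3226 with no filter, 1775 with DESeq2, 527 with the trend removed, 489 with the quadratic loess and 157 to 1189 without single wild-type libraries (157 without library 2, 478 without library 3, 1189 without library 1). Upper-quartile scaling moved the median of all genes from -0.05 to -0.17, and testing with no filter gave -0.27. The share of higher calls went from 621 of 763 to 329 of 527 with the trend removed.

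Of 30 members with a fold change under the naming rule, signs turned with the trend removed for COL4A2 (-0.84), COL6A1 (-0.70), COL6A2 (-0.69) and LOXL1 (-1.16), and with the quadratic loess for the same 4 (-0.84, -0.71, -0.79 and -1.30) and FBN2 (0.27). Leaving out single wild-type libraries gave -0.32 to 0.15 for COL4A1 (positive without library 3) and -0.19 to 0.15 for FBN2 (positive without library 1), and BGN stood at 0.28 without library 1. ARID1B had -0.18 with the trend removed, 0.62 with the quadratic loess and 0.47 to 1.12 without single libraries. With the trend removed, the log2 shift of chain ratios went from 1.54 to 0.21 for COL1A1 to COL1A2, from -0.44 to 0.39 for COL4A1 to COL4A2, from 0.44 to 0.68 for COL4A5 to COL4A6, from 1.90 to 0.67 for COL5A1 to COL5A2, from -0.51 to -0.0045 for COL6A1 to COL6A2 and from -1.30 to -0.69 for COL6A3 to COL6A1; the cause was not tested. No paired analysis was possible because the library labelled ARID1B shRNA is the only one of its group. Low counts limit COL8A1, COL8A2, COL12A1, COL13A1, COL18A1, POSTN and DCN, which had under 10 CPM in at least 1 wild-type library.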
